A study of Mus musculus with 11 samples.

Results

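The 42 genes described here encode proteins that carry out mitosis: the kinases and cyclins of entry, the passenger complex, the checkpoint and the anaphase-promoting complex, the kinetochore, spindle motors, the cytokinesis machinery and chromosome structure. They were taken as the probe sets annotated with exactly 1 of 42 listed gene symbols. All 42 were measured, by 73 probe sets, among 12393 genes in all. Each gene is given by its brightest probe set, as a log2 signal of an Affymetrix array made with RMA.

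The arrays came from JB6, a cell line derived from mouse epidermis that is used to study growth without attachment. The parental clone 41-5A, here called bFGF-JB6, carries the label of treatment with basic fibroblast growth factor (bFGF). RT101, a tumour variant of JB6, received no treatment. Each was sampled as an attached monolayer (3 arrays of bFGF-JB6 and 2 of RT101) and as colonies from soft agar on day 7 (3 arrays of each). In agar the bFGF dose was 10 ng/ml, while no dose or time is given for the bFGF-JB6 monolayers. The lines therefore differ in growth factor as well as in kind, and each is a single line. Nothing in the labels tells if replicate arrays are separate cultures; the p-values therefore reflect only how far these samples scatter, possibly for technical reasons. In whole-culture RNA, a smaller share of dividing cells and less of a transcript in each dividing cell cannot be told apart.

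Of 8 keratinocyte markers measured, Krt14, Cdh1 and Trp63 read at or below 3.91 (log2), the highest lower quartile of any array, on all 11 arrays. Krt10, a keratin of differentiating epidermis, read 6.71 to 7.46 on the bFGF-JB6 arrays and 4.95 to 5.53 on the RT101 arrays, while Krt5 and Itgb4 read 4.54 to 5.29 over all arrays. The keratinocyte markers thus did not go together, and Krt10 differed between the lines. Of 13 macrophage and leukocyte markers, Ptprc, Adgre1, Itgam, Fcgr1 and C1qb read at or below 3.91 on every array. Cd14 in contrast read 8.56 to 8.74 on the bFGF-JB6 arrays and 7.26 to 7.73 on the RT101 arrays. Cd68 read 6.35 to 8.39 on the bFGF-JB6 arrays and 3.41 to 3.83 on the RT101 arrays. The linear signals of those 13 summed to 662.5 to 673.6 in bFGF-JB6 monolayers, 890.2 to 938.5 in bFGF-JB6 colonies, 346.1 to 350.1 in RT101 monolayers and 387.9 to 410.2 in RT101 colonies. On 2 arrays, bFGF-JB6 monolayer replicate 1 and bFGF-JB6 colonies replicate 3, the 3' probe set of the Gapdh control exceeded its 5' probe set by 0.19 and 0.35 (log2), against -0.08 to -0.01 on the other 9.

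Most mitosis genes are transcribed late in the cell cycle, rising from S phase to G2 and mitosis and falling as cells leave the cycle. Their promoters often carry the cell cycle genes homology region (CHR), bound through the MuvB core by the repressive DREAM complex in resting cells and by B-Myb and FoxM1 in cycling cells, near CCAAT boxes bound by NF-Y. Tissue with few dividing cells therefore holds little of these messages, which is why Mki67 and Top2a serve as markers of proliferation.

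RefSeq promoters (build GRCm38.p6, 250 bases before and 50 after the annotated start) were at hand for 35 of the 42 genes. Those of Tpx2, Cdc25c, Aurkb, Ccna2, Kif20a, Smc4 and Incenp were not used here. A CHR match (TTTGAA or TTCGAA on either strand) was present in 29 of the 35 (82.86%), against 14.74% of the 9887 measured genes with a promoter and 19.44% of all 27025 promoters. The promoters of Nek2, Birc5, Mad2l1, Cenpe, Nuf2 and Nusap1 had none. A CCAAT match on either strand was present in 27 (77.14%, against 38.08% of measured genes), and both were present in 25 (71.43%, against 5.96%). An E2F match (TTTCCCGC, TTTCGCGC, TTTGCCGC or TTTGGCGC, either strand) was present in 3 (8.57%, against 3.57%). These are letter matches and not binding sites; TTCGAA is its own reverse complement and was counted once, and no motif contains another. The CHR matches clustered at the start of the gene. In 26 of the 35 (74.29%) at least 1 match began between 30 bases before the start and the end of the window, against 2.81% of measured genes.

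**Figure D1:**
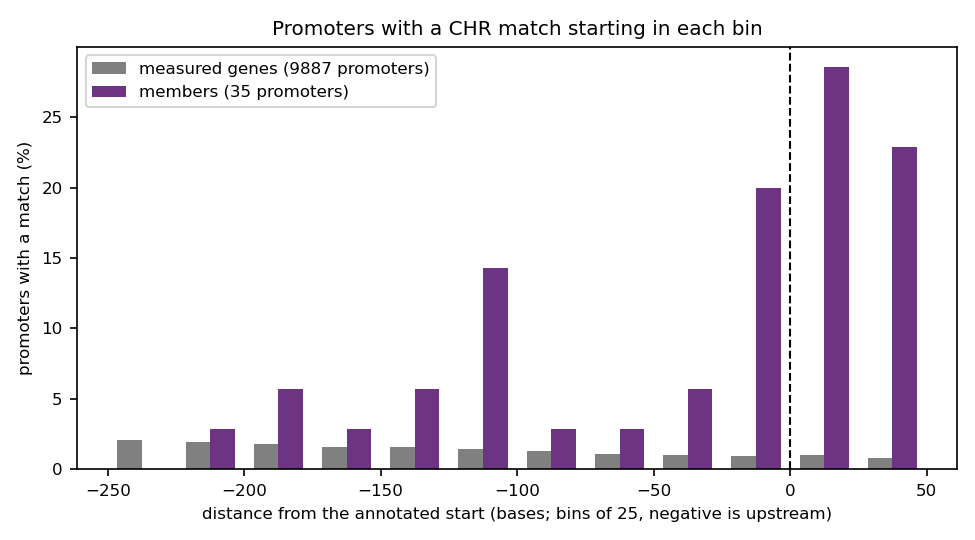
Share of promoters (%) with a CHR match beginning in each 25-base bin of distance from the annotated start, for the 35 mitosis promoters (purple) and the 9887 promoters of measured genes (grey); a promoter can count in several bins. The purple bars reach 28.57% and 22.86% in the last 2 bins, where the grey bars are at 1.0% and 0.79%.

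The stretches below show this arrangement in 10 genes, from 90 bases before the start to 30 after it, in the direction of transcription, with CHR and CCAAT matches on either strand in capitals (read on the other strand, TTTGAA appears as TTCAAA and CCAAT as ATTGG). The first 4 rose in RT101 colonies, the next 3 fell there, and the last 3 did not pass the test there. All 10 fell in bFGF-JB6 colonies. They lie at chr9:70421525-70421644, minus strand (Ccnb2), chr5:30666796-30666915, plus strand (Cenpa), chr2:69206184-69206303, minus strand (Spc25), chr9:61946770-61946889, minus strand (Kif23), chr2:127831830-127831949, minus strand (Bub1), chrX:100625975-100626094, plus strand (Kif4), chr5:45669835-45669954, plus strand (Ncapg), chr10:69352883-69353002, minus strand (Cdk1), chr4:118437314-118437433, minus strand (Cdc20) and chr2:164769839-164769958, plus strand (Ube2c).
Ccnb2: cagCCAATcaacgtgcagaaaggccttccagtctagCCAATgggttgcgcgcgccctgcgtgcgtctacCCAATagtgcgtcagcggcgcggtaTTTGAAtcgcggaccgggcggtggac
Cenpa: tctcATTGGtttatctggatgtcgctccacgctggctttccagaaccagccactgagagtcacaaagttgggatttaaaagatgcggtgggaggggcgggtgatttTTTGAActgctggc
Spc25: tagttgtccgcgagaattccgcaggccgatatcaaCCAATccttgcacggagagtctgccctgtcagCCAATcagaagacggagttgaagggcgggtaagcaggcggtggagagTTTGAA
Kif23: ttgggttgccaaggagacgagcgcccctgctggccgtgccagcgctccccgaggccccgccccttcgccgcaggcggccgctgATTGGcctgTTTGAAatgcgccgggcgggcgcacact
Bub1: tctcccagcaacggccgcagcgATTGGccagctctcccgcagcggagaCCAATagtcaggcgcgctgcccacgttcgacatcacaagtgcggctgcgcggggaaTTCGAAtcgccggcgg
Kif4: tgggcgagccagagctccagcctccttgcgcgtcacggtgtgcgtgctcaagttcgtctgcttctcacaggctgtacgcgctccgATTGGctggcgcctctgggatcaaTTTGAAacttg
Ncapg: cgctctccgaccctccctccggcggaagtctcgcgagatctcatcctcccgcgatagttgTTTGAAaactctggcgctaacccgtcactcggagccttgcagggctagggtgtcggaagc
Cdk1: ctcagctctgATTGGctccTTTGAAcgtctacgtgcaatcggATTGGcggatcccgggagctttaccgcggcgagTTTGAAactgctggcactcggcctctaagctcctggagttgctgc
Cdc20: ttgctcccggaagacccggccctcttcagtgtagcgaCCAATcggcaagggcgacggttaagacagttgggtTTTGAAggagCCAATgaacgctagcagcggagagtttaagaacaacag
Ube2c: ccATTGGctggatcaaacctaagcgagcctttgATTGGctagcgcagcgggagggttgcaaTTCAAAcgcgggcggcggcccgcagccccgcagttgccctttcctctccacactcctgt
In Ccnb2 the match next to the start covers bases 5 to 10 of the transcript, in Spc25 bases 25 to 30 and in Bub1, as TTCGAA, bases 15 to 20. In Cdc20 it covers positions -18 to -13 relative to the start and in Ncapg -30 to -25. Cdk1 has a match at -71 to -66 and another at -15 to -10.

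A CHR match was found in 8 of 9 genes with a promoter that rose in RT101 colonies, in 6 of 7 that fell there and in 15 of 19 that did not pass there, so the match was common in each of these groups. The lists of other mitosis genes described further on had a CHR match in 28 of 74 promoters (37.84%). Among those, the match was in 23 of 47 genes that fell in bFGF-JB6 colonies (48.94%) and in 5 of 26 that did not pass there (19.23%). Of DNA replication genes, which act in S phase, 4 of 21 had a match (19.05%). Of transcription factors that act on cell cycle promoters, 4 of 9 did (44.44%).

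In bFGF-JB6 colonies all 42 genes were lower than in bFGF-JB6 monolayers (limma on all 11 arrays, adjusted p under 0.05 over all genes). The same call was made for 15.3% of all genes, and a rise, called for 0 members, for 14.1%. The median log2 difference of the members was -1.11, against 0.03 for all genes, and the members ranged from -2.24 (Cenpe) to -0.36 (Tpx2). At least 2-fold decreases were called for 24 of the 42, against 1.85% of all genes. In 40 genes all 3 colony arrays lay below all 3 monolayer arrays, against 19.1% of all genes. In the same number they lay below all 8 other arrays of the series (9.72% of all genes), the exceptions being Kif11 and Smc4. Of the 13 macrophage and leukocyte markers, Cd68 and Csf1r rose in these colonies by 1.86 and 0.92 on the log2 scale, and Lyz2 by 0.36, while Mrc1 fell by 0.64. Of the 8 keratinocyte markers, Krt10 rose by 0.54 and Krt1 by 0.36. Krt1 read only 3.39 to 3.92 on the bFGF-JB6 arrays, near the bottom of the scale. The summed linear signal of the 8 was 237.4 to 240.7 in monolayers and 280.7 to 315.1 in colonies. Of 8 fibroblast and mesenchymal markers, Col1a1, Col1a2, Col3a1 and Pdgfrb rose in these colonies and Vim and Twist1 fell, each by at most 0.59, with sums of 13410.8 to 14170.0 in monolayers and 12452.3 to 13886.8 in colonies. Of 9 endothelial markers 1 rose (Vwf, 0.88, named after its value was seen). Vwf read 2.71 to 4.12 on the bFGF-JB6 arrays, also near the bottom of the scale. The sums of the endothelial markers lay between 134.8 and 169.8 over all groups. Those of 2 erythroid markers lay between 42.5 and 51.4. The part of other cells or of a changed cell state in the members' decrease was not tested.

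In RT101 colonies the same 42 genes split. Against RT101 monolayers 11 rose (17% of all genes did), 10 fell (15.4% of all genes) and 21 did not pass, with a median of -0.02 against -0.01 for all genes. A change in either direction was thus called for 21 of 42 genes, against 32.4% of all genes, and only Ect2 changed by 2-fold or more, downward (2.37% of all genes fell that far and 3.41% rose). No RT101 monolayer array lay within the range of the RT101 colony arrays for 17 genes that were higher in colonies (27.9% of all genes) and 14 that were lower (28.2%). The median took the other sign, at 0.01, without RT101 monolayer replicate 1 or without RT101 colonies replicate 3. With either of the RT101 monolayer arrays left out, 6 genes were called lower, and 7 were called higher when it was replicate 2. Of the 8 fibroblast and mesenchymal markers, Pdgfrb (3.07), Col3a1 (2.84), Pdgfra (1.204) and Col1a1 (0.69) rose in RT101 colonies on the log2 scale. Their summed linear signal was 11886.3 to 12510.0 in RT101 monolayers and 18666.1 to 19324.0 in RT101 colonies. Thy1 was at or below 3.91 on every array. Of the 13 macrophage and leukocyte markers, 2 rose in RT101 colonies, by at most 0.62, and 0 fell. Of the 8 keratinocyte, 9 endothelial and 2 erythroid markers, 0 passed there. The part of these markers in the members' split was not tested.

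**Figure D2:**
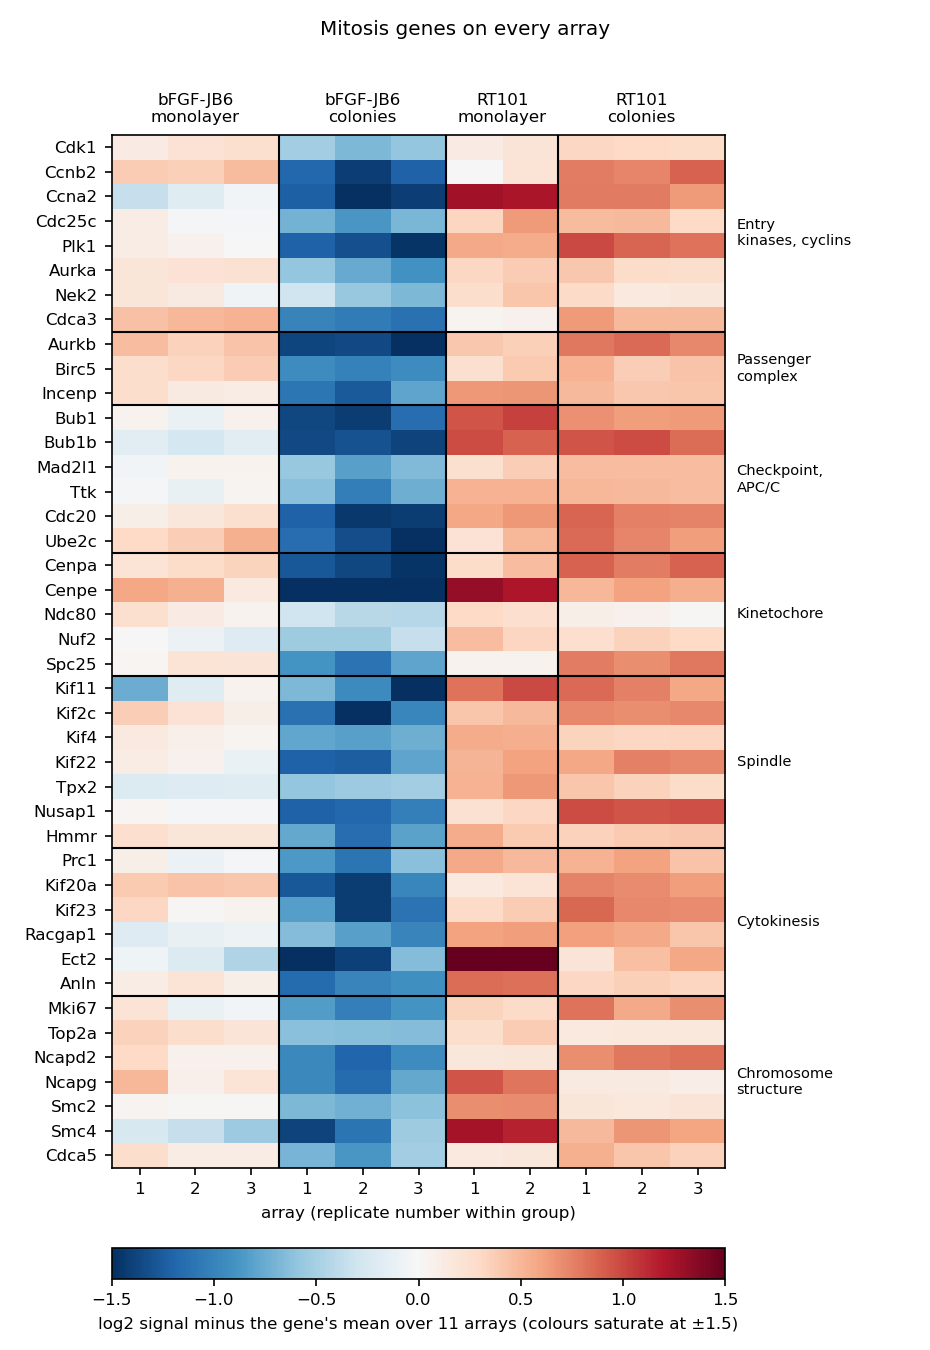
Log2 signal of each of the 42 mitosis genes (rows, by role) on each of the 11 arrays (columns, by group), as the difference from the gene's mean over all arrays; red is higher and blue lower, and colours saturate at 1.5. The 3 bFGF-JB6 colony columns are blue throughout, and the RT101 columns are red in nearly all rows, with the deepest red in RT101 monolayer for 23 genes by group mean and in RT101 colonies for 19.

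The difference between the lines' colony changes (RT101 change minus bFGF-JB6 change) was tested directly. It was positive and passed for 34 of the 42 genes, against 15% of all genes (12.7% were negative and passed, and 0 members), with a median of 0.99 against -0.04, and 20 passed with 2-fold or more (4.7% of all genes). It did not pass for Ndc80, Nuf2, Kif11, Tpx2, Ect2, Ncapg, Smc2 and Smc4. This test, both colony changes and the comparisons of the lines share arrays, so they are not independent of each other. Among the 42 genes the lowest of the 4 group means was always that of bFGF-JB6 colonies. The share of all genes with that order of means was not counted.

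The drivers of mitotic entry all fell in bFGF-JB6 colonies. Cdk1, the mitotic kinase, read 10.40, 10.49 and 10.52 in bFGF-JB6 monolayers and 9.76, 9.61 and 9.70 in colonies, and 10.40 and 10.47 in RT101 monolayers and 10.59, 10.58 and 10.55 in RT101 colonies. The bFGF-JB6 colonies lay below all other arrays, with a fall of 0.78 on the log2 scale (SE 0.08, limma adjusted p = 5.52e-06). The RT101 colonies lay just above all other arrays, and their difference from RT101 monolayers of 0.14 (SE 0.09, adjusted p = 0.288) did not pass, with a 95% interval from -0.05 to 0.32. Ccnb2, a B-type cyclin that activates Cdk1, read 8.15, 8.12 and 8.23 in bFGF-JB6 monolayers, 6.58, 6.35 and 6.55 in their colonies, 7.77 and 7.97 in RT101 monolayers and 8.53, 8.49 and 8.65 in RT101 colonies. It was low in bFGF-JB6 colonies and highest in RT101 colonies, and no 2 of these groups overlapped. Its change was -1.67 (SE 0.09, adjusted p = 2.02e-08) in bFGF-JB6 and 0.69 (SE 0.10, adjusted p = 0.000145) in RT101. The difference between these changes, 2.36 on the log2 scale, was the largest among the 42 genes.

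Plk1, a kinase that acts from entry to cytokinesis, read 7.97, 7.92 and 7.87 in bFGF-JB6 monolayers and 6.65, 6.54 and 6.39 in colonies, a fall of 1.39 (SE 0.09, adjusted p = 6.56e-08). In RT101 it rose from 8.43 and 8.41 to 8.84, 8.73 and 8.68 (log2 difference 0.33, SE 0.10, adjusted p = 0.0186). That rise was not called in 4 of the 21 refits of the model (adjusted p up to 0.0933). Aurka, the centrosomal Aurora kinase, read 8.70, 8.74 and 8.75 in bFGF-JB6 monolayers against 7.94, 7.76 and 7.61 in colonies (-0.96, SE 0.09, adjusted p = 3.7e-06). Its RT101 groups, at 8.82 and 8.90 in monolayers and 8.92, 8.79 and 8.78 in colonies, overlapped (-0.03, adjusted p = 0.87). Cdca3, which promotes degradation of the Cdk1 inhibitor Wee1, fell by 1.54 in bFGF-JB6 colonies and rose by 0.49 in RT101 colonies, or read 0.15 there with the mean of its probe sets (adjusted p = 0.273). Ccna2, the cyclin of S phase and early mitosis, fell in both, by 1.19 and 0.51. Its other probe set also fell in bFGF-JB6 colonies (-0.997) but read 0.02 in RT101 (adjusted p = 0.935 over all probe sets). Cdc25c, the phosphatase that activates Cdk1, and the centrosomal kinase Nek2 fell by 0.77 and 0.60 in bFGF-JB6 and did not pass in RT101 (-0.06 and -0.14).

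**Figure D3:**
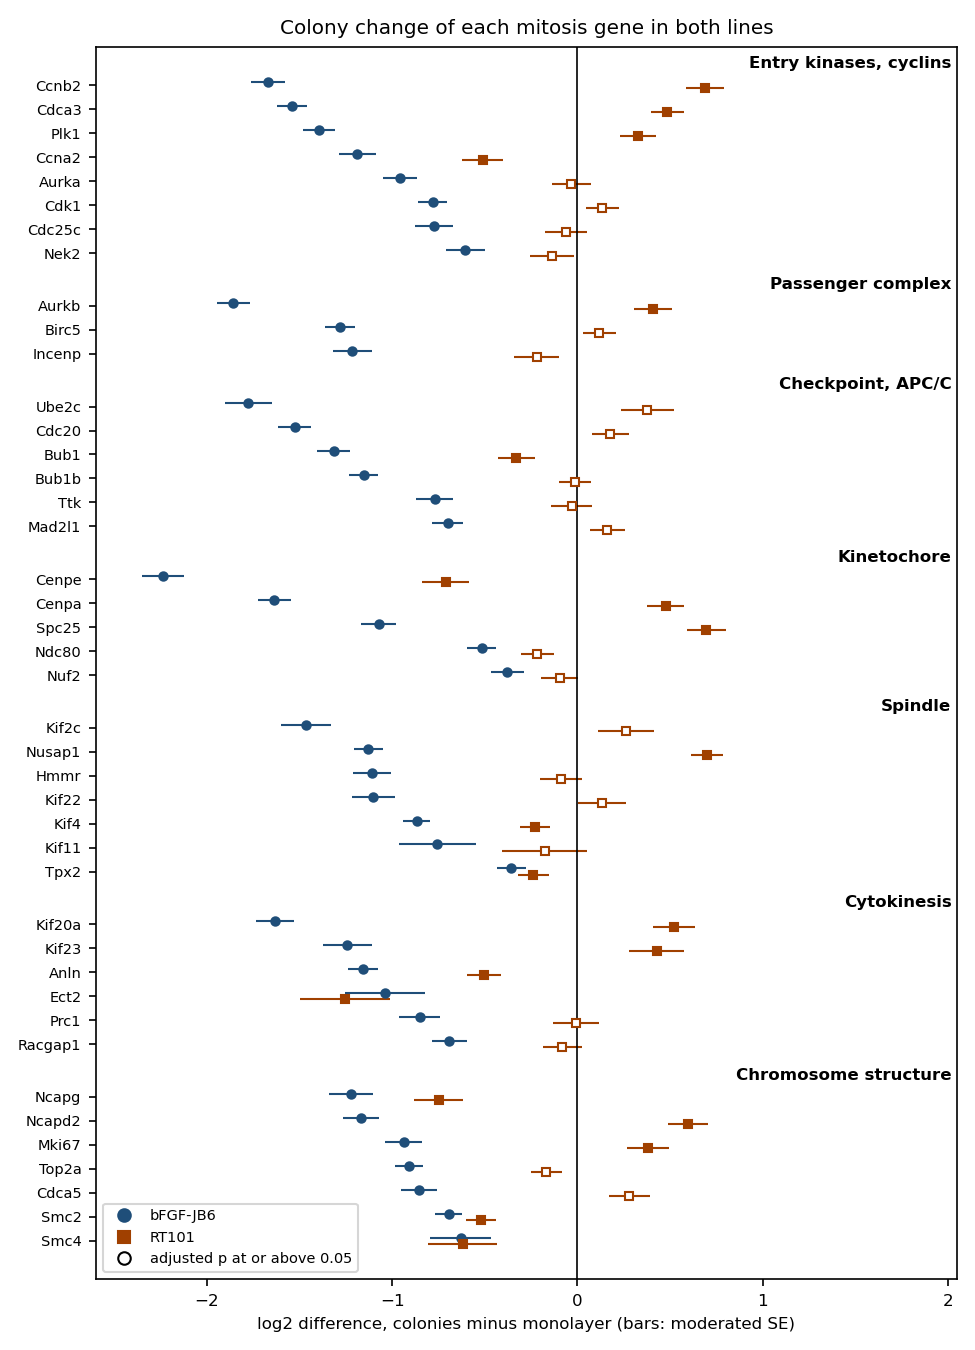
Log2 difference of colonies minus monolayer for each mitosis gene, by role, in bFGF-JB6 (blue circles) and RT101 (brown squares), with the moderated standard error; open symbols did not pass at an adjusted p of 0.05. All 42 blue circles lie left of 0 and are filled, while the brown squares lie on both sides, from -1.26 (Ect2) to 0.70 (Nusap1).

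The chromosomal passenger complex corrects kinetochore attachment and then moves to the midzone. By their brightest probe sets, its 3 measured genes fell at least 2-fold in bFGF-JB6 colonies. Aurkb, its kinase, read 7.91, 7.79 and 7.87 in bFGF-JB6 monolayers and 6.07, 6.10 and 5.82 in colonies (-1.86, SE 0.09, adjusted p = 5.07e-09). In RT101 it read 7.85 and 7.80 in monolayers and 8.23, 8.30 and 8.16 in colonies, with all colony arrays higher (0.41, SE 0.10, adjusted p = 0.00607). Its other probe set gave -1.56 and 0.65, both called. Birc5, which encodes survivin, read 9.51, 9.56 and 9.62 in bFGF-JB6 monolayers and 8.31, 8.23 and 8.31 in colonies (-1.28, SE 0.08, adjusted p = 7.01e-08). The RT101 monolayers at 9.49 and 9.64 overlapped the RT101 colonies at 9.76, 9.62 and 9.67 (0.12, adjusted p = 0.378). Incenp, the scaffold, fell by 1.21 in bFGF-JB6 and did not pass in RT101 (-0.22). The other probe sets of Incenp gave -0.84 and -0.47 in bFGF-JB6 colonies, both called but under 2-fold. The brightest probe sets of Aurkb and Incenp are of a type (suffix x_at) that can bind related transcripts.

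Among checkpoint and anaphase-promoting complex genes, Ube2c changed most in bFGF-JB6 colonies. It encodes the ubiquitin-conjugating enzyme of that complex and read 10.09, 10.16 and 10.32 in bFGF-JB6 monolayers against 8.65, 8.46 and 8.14 in colonies (-1.78, SE 0.13, adjusted p = 2.5e-07). In RT101 it read 10.01 and 10.29 in monolayers and 10.65, 10.52 and 10.41 in colonies, which lay higher without passing the test (0.38, SE 0.14, adjusted p = 0.0621). Cdc20, the activator of the complex, read 9.37, 9.45 and 9.53 in bFGF-JB6 monolayers and 8.07, 7.84 and 7.86 in colonies (-1.53, SE 0.09, adjusted p = 2.95e-08). Its RT101 values were 9.86 and 9.93 in monolayers and 10.16, 10.04 and 10.03 in colonies (0.18, adjusted p = 0.204). Both genes thus had their highest readings in RT101 colonies, although neither difference from RT101 monolayers passed. That of Ube2c passed in 7 of 21 refits (adjusted p down to 0.0208). The other probe sets of Cdc20 gave -1.61 and -0.43 in bFGF-JB6 colonies, both called. For the difference between the lines they gave 1.66 and 0.36, the latter without passing (adjusted p = 0.0536 over all probe sets).

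Bub1b, which encodes the checkpoint protein BubR1, read 7.56, 7.46 and 7.56 in bFGF-JB6 monolayers and 6.38, 6.41 and 6.34 in colonies, a fall of 1.15 (SE 0.08, adjusted p = 1.39e-07). In RT101 it read 8.71 and 8.61 in monolayers and 8.67, 8.70 and 8.57 in colonies, with overlap and a difference of -0.01 (95% interval -0.20 to 0.17). Bub1, a kinetochore kinase of the checkpoint, fell in both lines, by 1.32 in bFGF-JB6 and by 0.33 in RT101 (adjusted p = 0.0214), the latter not called in 5 of 21 refits. The checkpoint genes Ttk and Mad2l1 fell by 0.77 and 0.70 in bFGF-JB6 colonies and did not pass in RT101 (-0.03 and 0.16).

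In bFGF-JB6 colonies the kinetochore genes ranged from -2.24 to -0.38, more widely than those of any other role there; in RT101 colonies the cytokinesis genes did (-1.26 to 0.52, against -0.71 to 0.70). Cenpe, a kinesin that links kinetochores to microtubules, read 6.14, 6.08 and 5.70 in bFGF-JB6 monolayers and 3.74, 3.62 and 3.84 in colonies, the largest fall of the 42 (-2.24, SE 0.11, adjusted p = 7.12e-09). Those colony readings are near the bottom of the scale, at or below the highest lower quartile of any array (3.91), where RMA compresses folds, and Cenpe was the only member with a group mean there. In RT101 Cenpe read 6.87 and 6.76 in monolayers and 6.05, 6.16 and 6.10 in colonies (-0.71, SE 0.13, adjusted p = 0.000526). Cenpa, the centromeric histone, went opposite ways: 8.94, 9.01 and 9.07 in bFGF-JB6 monolayers against 7.47, 7.38 and 7.26 in colonies (-1.64, SE 0.09, adjusted p = 1.57e-08), and 9.02 and 9.20 in RT101 monolayers against 9.63, 9.51 and 9.63 in colonies (0.48, SE 0.10, adjusted p = 0.00187). Cenpa and Cenpe, both centromere proteins, therefore differed in direction in RT101 colonies while both fell in bFGF-JB6 colonies.

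Ndc80, Nuf2 and Spc25 encode 3 subunits of the NDC80 complex, the microtubule-binding part of the kinetochore. Ndc80 read 7.83, 7.72 and 7.65 in bFGF-JB6 monolayers and 7.29, 7.18 and 7.17 in colonies (-0.52, SE 0.08, adjusted p = 0.000241), and 7.89 and 7.84 against 7.68, 7.65 and 7.61 in RT101 (-0.22, SE 0.09, adjusted p = 0.0832). Nuf2 fell by 0.38 in bFGF-JB6 (adjusted p = 0.00511) and read -0.10 in RT101. Spc25 read 7.55, 7.72 and 7.71 in bFGF-JB6 monolayers and 6.62, 6.41 and 6.72 in colonies (-1.07, SE 0.09, adjusted p = 1.41e-06). In RT101 it rose from 7.56 and 7.57 to 8.28, 8.21 and 8.30 (0.70, SE 0.10, adjusted p = 0.000144). The 3 subunits thus did not move by like amounts. The difference between the lines was 1.77 for Spc25, 0.30 for Ndc80 (95% interval 0.04 to 0.56, adjusted p = 0.082) and 0.28 for Nuf2 (-0.00 to 0.57, adjusted p = 0.141).

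**Figure D4:**
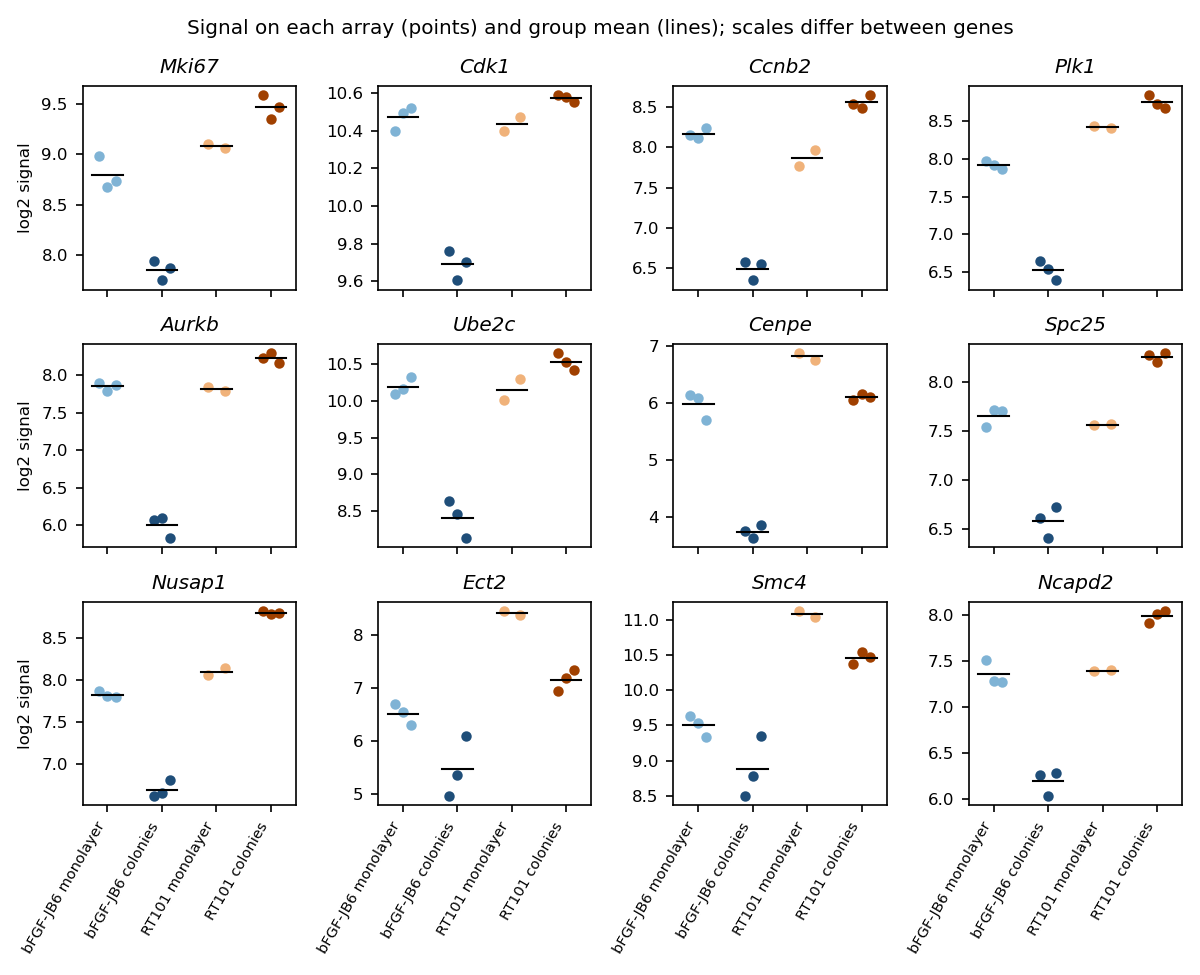
Log2 signal on each array (points) and group mean (lines) for 12 mitosis genes in the 4 groups; the vertical scale differs between genes and does not start at 0. The bFGF-JB6 colonies have the lowest mean for all 12. The RT101 colonies have the highest mean for Mki67, Cdk1, Ccnb2, Plk1, Aurkb, Ube2c, Spc25, Nusap1 and Ncapd2. The RT101 monolayers have the highest mean for Cenpe, Ect2 and Smc4.

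Spindle genes fell in bFGF-JB6 colonies by 0.36 to 1.47. Kif11, the plus-end motor that separates the spindle poles, read 6.25, 6.81 and 7.04 in bFGF-JB6 monolayers and 6.31, 6.03 and 5.49 in colonies. The monolayer and colony arrays overlapped, and the lowest reading of each group was on the array with raised Gapdh 3' signal; its part was not tested. The difference was -0.76 (SE 0.21, adjusted p = 0.0129) and did not pass without bFGF-JB6 monolayer replicate 3 (adjusted p = 0.0675); it was -0.75 without both arrays of raised 3' signal (adjusted p = 0.00148). The other probe sets of Kif11 gave -1.34 and -1.15. In RT101 its brightest probe set read 7.80 and 7.98 in monolayers and 7.84, 7.75 and 7.56 in colonies (-0.18, adjusted p = 0.643). For the difference between the lines, the brightest probe set gave 0.58 (adjusted p = 0.2), while the other probe sets gave 1.18 and 1.17 and passed over all probe sets (adjusted p = 0.00015 and 0.000134).

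Tpx2, which nucleates spindle microtubules and activates Aurora A, changed least in bFGF-JB6 colonies. It read 8.27, 8.28 and 8.29 in monolayers and 7.89, 7.93 and 7.95 in colonies, with no overlap (-0.36, SE 0.08, adjusted p = 0.00292). In RT101 it read 8.99 and 9.12 against 8.89, 8.82 and 8.74 (-0.24, adjusted p = 0.0493), a call lost in 14 of 21 refits. Its other probe set read 0.17 in bFGF-JB6 colonies (adjusted p = 0.418 over all probe sets), and the mean of both did not pass (adjusted p = 0.494). Nusap1, a microtubule-bundling protein, fell by 1.13 in bFGF-JB6 and rose in RT101 from 8.06 and 8.14 to 8.82, 8.78 and 8.80 (0.70, SE 0.09, adjusted p = 3.16e-05), the largest rise of the 42 there. The kinesin genes Kif2c, Kif22 and Kif4 fell by 1.47, 1.10 and 0.87 in bFGF-JB6 colonies. In RT101 the first 2 did not pass (0.26 and 0.13) and Kif4 fell by 0.23 (adjusted p = 0.0476, lost in 12 of 21 refits). Hmmr, a spindle-associated hyaluronan receptor, fell by 1.11 in bFGF-JB6 and read -0.09 in RT101. Its other probe sets gave -0.77, -0.69 and -0.57 in bFGF-JB6 colonies, the last without passing (adjusted p = 0.0566 over all probe sets).

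Of the cytokinesis genes, Kif20a, a kinesin of the central spindle, read 8.53, 8.57 and 8.54 in bFGF-JB6 monolayers and 6.86, 6.72 and 7.16 in colonies (-1.63, SE 0.10, adjusted p = 6.56e-08). In RT101 it rose from 8.28 and 8.34 to 8.88, 8.85 and 8.77 (0.52, SE 0.11, adjusted p = 0.00276). Its partner in the midzone Kif23, a centralspindlin subunit, fell by 1.24 and rose by 0.43 (adjusted p = 0.0395, lost in 8 of 21 refits). Racgap1, the other centralspindlin subunit, fell by 0.69 in bFGF-JB6 and read -0.08 in RT101. Prc1, the bundler of midzone microtubules, read 8.83, 8.66 and 8.72 in bFGF-JB6 monolayers and 7.88, 7.66 and 8.12 in colonies (-0.85, SE 0.11, adjusted p = 5.34e-05). Its RT101 arrays overlapped, at 9.32 and 9.24 in monolayers and 9.27, 9.36 and 9.18 in colonies (-0.01, 95% interval -0.27 to 0.26).

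Ect2, the exchange factor that activates RhoA at the cleavage furrow, stood apart from Kif20a and Kif23 in RT101. It read 8.46 and 8.38 in RT101 monolayers and 6.95, 7.20 and 7.34 in RT101 colonies (-1.26, SE 0.24, adjusted p = 0.00111), the largest fall of the 42 there. In bFGF-JB6 it read 6.69, 6.54 and 6.30 in monolayers and 4.96, 5.36 and 6.10 in colonies, also lower throughout (-1.04, SE 0.22, adjusted p = 0.00239). The highest reading of each bFGF-JB6 group came from the array with raised Gapdh 3' signal. Without both of those arrays the difference was -1.26 (adjusted p = 0.00015). Anln, the actin-binding protein anillin, fell in both lines, by 1.16 and 0.50, and each of its colony arrays lay below each monolayer array of its line.

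Among chromosome structure genes the proliferation antigen Mki67 read 8.98, 8.67 and 8.73 in bFGF-JB6 monolayers and 7.94, 7.75 and 7.87 in colonies (-0.94, SE 0.10, adjusted p = 9.1e-06). In RT101 it read 9.10 and 9.06 in monolayers and 9.58, 9.35 and 9.47 in colonies, all higher (0.38, SE 0.11, adjusted p = 0.0172, lost in 3 of 21 refits). Top2a, the topoisomerase that untangles sister chromatids, read 10.23, 10.14 and 10.08 in bFGF-JB6 monolayers and 9.25, 9.24 and 9.23 in colonies (-0.91, SE 0.08, adjusted p = 1.07e-06). In RT101 it read 10.14 and 10.27 against 10.03, 10.04 and 10.04, lower in colonies without passing (-0.17, 95% interval -0.35 to 0.02, adjusted p = 0.17). Both proliferation markers were lower in bFGF-JB6 colonies on every array, and in RT101 their readings lay on opposite sides of the monolayers. Cdca5, which encodes the cohesin protector sororin, fell by 0.86 in bFGF-JB6 and read 0.28 in RT101 (adjusted p = 0.0699, called in 8 of 21 refits).

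The condensin subunits, which compact chromosomes, did not go together in RT101. Smc2 read 8.96, 8.93 and 8.94 in bFGF-JB6 monolayers and 8.25, 8.19 and 8.30 in colonies (-0.69, SE 0.07, adjusted p = 7.71e-06), and 9.61 and 9.62 in RT101 monolayers and 9.10, 9.07 and 9.11 in RT101 colonies (-0.52, SE 0.08, adjusted p = 0.000192). Smc4, its partner ATPase, read 9.64, 9.53 and 9.34 in bFGF-JB6 monolayers and 8.49, 8.78 and 9.35 in colonies. The third colony array, which has raised Gapdh 3' signal, reached the monolayer range. The fall was 0.63 (SE 0.17, adjusted p = 0.0104), or 0.80 without both arrays of raised 3' signal, and the other 2 probe sets of Smc4 fell by 0.93 and 0.75. In RT101 Smc4 went from 11.13 and 11.04 to 10.37, 10.55 and 10.47 (-0.62, SE 0.19, adjusted p = 0.019, lost in 3 of 21 refits). Ncapg, a regulatory subunit, fell by 1.22 in bFGF-JB6 (adjusted p = 4.05e-06) and 0.75 in RT101 (adjusted p = 0.000555), its groups not overlapping in either line. Ncapd2, another regulatory subunit of the same complex, read 7.51, 7.28 and 7.28 in bFGF-JB6 monolayers and 6.26, 6.03 and 6.28 in colonies (-1.17, SE 0.10, adjusted p = 8.2e-07). In RT101 it rose from 7.39 and 7.40 to 7.91, 8.01 and 8.05 (0.60, SE 0.11, adjusted p = 0.00062).

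For 5 of the 8 genes that did not pass the test of the difference between the lines, the colony change itself passed in both lines: Tpx2, Ect2, Ncapg, Smc2 and Smc4. The differences were 0.12 (95% interval -0.13 to 0.37) for Tpx2, -0.22 (-0.92 to 0.49) for Ect2, 0.47 (0.09 to 0.86) for Ncapg, 0.17 (-0.06 to 0.41) for Smc2 and 0.01 (-0.53 to 0.55) for Smc4. The intervals of Ect2 and Smc4 are the widest of these. The other probe set of Ncapg passed at 0.54 (adjusted p = 0.0428 over all probe sets).

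The split of RT101 was kept in part across the 21 refits of the model (other summaries, scalings, blocks and arrays left out). Ccnb2, Cenpa, Spc25, Nusap1, Kif20a and Ncapd2 were called higher in RT101 colonies in every one, and Ccna2, Cenpe, Ect2, Anln, Ncapg and Smc2 lower. In bFGF-JB6 colonies 40 of 42 genes were called lower in every refit, all but Kif11 and Tpx2. Cenpe and Cdc25c were tested in 20 refits, as the refit on genes at or above the median level left them out. Some calls were made only on refit: in RT101 colonies those of Cdca5 and Ube2c, Ndc80 (lower in 5 refits), Kif2c (higher in 1) and Top2a (lower in 1), and for the difference between the lines those of Ncapg (7 refits), Kif11 (3) and Ndc80 (1). The call of Nek2 for that difference was lost in 13 of 21 refits. Other probe sets near the bottom of the scale, such as those of Cdca3, Bub1, Spc25, Nusap1 and Top2a with means of 2.73 to 4.31, showed no called change.

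**Figure D5:**
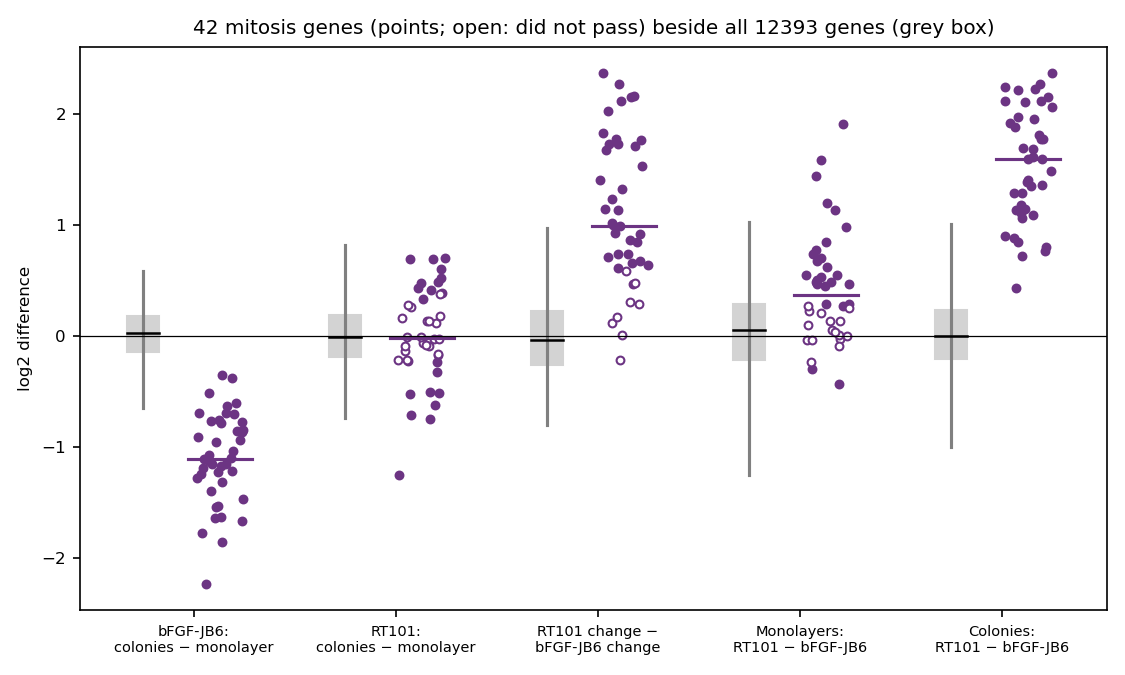
Log2 differences of the 42 mitosis genes (purple points, open where not passed, purple line at the median) in the 5 comparisons, beside all 12393 genes (grey box from the 25th to the 75th percentile, line from the 5th to the 95th, black bar at the median). The members' median is -1.11 in bFGF-JB6 colonies and -0.02 in RT101 colonies, 0.99 for the difference between these, 0.37 between monolayers and 1.59 between colonies.

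Between the monolayers, RT101 read higher than bFGF-JB6 for 24 of the 42 genes (23.2% of all genes did), lower for 2 (21.2%) and did not pass for 16, with a median of 0.37 against 0.05 for all genes. The largest differences were those of Ect2 (1.91, SE 0.24, adjusted p = 1.79e-05), Smc4 (1.58, SE 0.19, adjusted p = 8.24e-06) and Ccna2 (1.44, SE 0.11, adjusted p = 1.7e-07), followed by Kif11 (1.19) and Bub1b (1.13). Those 5 were the members called with 2-fold or more (5.33% of all genes). All RT101 arrays lay above all bFGF-JB6 arrays for 29 genes (33.4% of all genes) and below for 3 (27.7%). Cdca3 was lower in RT101 (-0.43, SE 0.09, adjusted p = 0.00104) and so was Ccnb2 (-0.30, SE 0.10, adjusted p = 0.0303), and Kif20a read -0.24 without passing (adjusted p = 0.118). Both calls of a lower level were lost in at least 1 refit. Cdk1 (-0.04, 95% interval -0.22 to 0.15), Birc5 (0.00, -0.19 to 0.20) and Top2a (0.05, -0.13 to 0.24) did not pass.

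Between the colonies, all 42 genes read higher in RT101 than in bFGF-JB6, against 22.7% of all genes (20.7% were lower), and for all 42 no RT101 colony array lay at or below a bFGF-JB6 colony array (26.1% of all genes). The median was 1.59, against 0.00 for all genes, and 35 differed 2-fold or more (5.08% of all genes). The largest differences were those of Cenpe (2.37, SE 0.11, adjusted p = 1.19e-09), Bub1b (2.27, SE 0.08, adjusted p = 4.51e-11) and Aurkb (2.23, SE 0.09, adjusted p = 2.32e-10). The smallest were those of Ndc80 (0.43, SE 0.08, adjusted p = 0.000489), Nek2 (0.71, SE 0.11, adjusted p = 7.72e-05) and Nuf2 (0.77, SE 0.09, adjusted p = 7.21e-06). By role, the median was highest for checkpoint and anaphase-promoting complex genes (2.04) and lowest for chromosome structure genes (1.13).

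Mitosis genes outside the 42 were counted from 5 further lists. Over all genes, 15.3% fell and 14.1% rose in bFGF-JB6 colonies, and 15.4% fell and 17% rose in RT101 colonies. Several of the RT101 counts below lie near or under these shares, and no list was tested as a whole. Of 22 other centromere and kinetochore genes, 15 fell and 1 rose in bFGF-JB6 colonies, the rise being that of Cenpx (0.33, named after its value was seen). The largest falls were those of Cenpf (-1.89), the histone H3 kinase Haspin (-1.63) and the microtubule-binding Ska1 (-1.61). In RT101 colonies 8 fell, among them Haspin (-0.77, not called without RT101 monolayer replicate 1, adjusted p = 0.0533), and 3 rose, of which Cenpb, a centromere DNA-binding protein, rose most (0.86, or 0.57 without RT101 monolayer replicate 1, adjusted p = 0.142); the others were Cenpm and Cenpx, named after their values were seen. Of 21 other checkpoint and anaphase-promoting complex genes, 10 fell in bFGF-JB6 colonies, led by Trip13 (-1.54), which takes apart the checkpoint complex, securin (Pttg1, -0.81) and the scaffold subunit Anapc1 (-0.71). With the mean of its probe sets Anapc1 read -0.19 and did not pass (adjusted p = 0.143). In RT101 colonies Trip13 (-1.16) and Anapc1 (-0.84) fell, and 3 rose, Anapc2, Anapc13 and Fzr1, named after their values were seen.

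Of 13 other genes of mitotic entry, 9 fell in bFGF-JB6 colonies, among them the kinase genes Melk (-1.36) and Plk4 (-1.09) and the Cdk-binding Cks1b (-1.14). In RT101 colonies Plk4 (-0.91), Cdc25a and Pbk fell, and cyclin F (Ccnf, 0.66) and Mastl rose; Cdc25a, Pbk and Mastl were named after their values were seen. Ccnb1 was not analysed here. Of 19 other spindle and cytokinesis genes, 16 fell in bFGF-JB6 colonies, led by Aspm (-1.63), Depdc1a (-1.502) and Spag5 (-1.48). In RT101 colonies 5 fell, including the centriole gene Stil (-0.49, not called in 1 refit) and the abscission gene Cep55 (-0.45, not called in 5), and 2 rose, Ckap2 and Numa1, named after their values were seen. The other 3 that fell there were Kif2a, Dlgap5 and Ckap5, likewise named afterwards. Of 11 other condensin and cohesin genes, 3 fell in bFGF-JB6 colonies, all of them condensin subunits: Ncaph (-0.89), Ncaph2 (-0.60) and Ncapg2 (-0.53). In RT101 colonies the cohesin regulators Pds5a (-0.84) and Nipbl (-0.40) fell and Ncaph2 rose by 0.23 (adjusted p = 0.0487). The call of Nipbl was lost in 4 of 21 refits (adjusted p up to 0.136) and that of Ncaph2 in 11 (up to 0.244). For these lists too, the shares over all genes were 15.3% lower and 14.1% higher in bFGF-JB6 colonies. They were 15.4% lower and 17% higher in RT101 colonies.

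Of 27 DNA replication genes, 25 fell in bFGF-JB6 colonies (median -0.77), led by thymidine kinase (Tk1, -1.504), the ribonucleotide reductase subunit Rrm2 (-1.47) and cyclin E2 (Ccne2, -1.25). In RT101 colonies 10 fell, including the polymerase subunit Pole (-0.91) and Ccne2 (-0.89), and 2 rose, Gmnn (0.34) and Tk1 (0.67), named after their values were seen. Over all genes, 15.3% fell in bFGF-JB6 colonies, and 15.4% fell and 17% rose in RT101 colonies.

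Transcription factors that act on cell cycle promoters moved less uniformly. Of 14 measured, 5 fell in bFGF-JB6 colonies: E2f8 (-1.51, SE 0.09, adjusted p = 6.38e-08), Rbl1, which encodes p107 (-1.29, SE 0.11, adjusted p = 1.43e-06), the MuvB gene Lin9 (-0.55), Mybl2, which encodes B-Myb (-0.44, SE 0.11, adjusted p = 0.00667), and Tfdp1 (-0.27, named after its value was seen). Foxm1 read -0.29 in bFGF-JB6 colonies (adjusted p = 0.0689) and -0.19 in RT101 colonies (adjusted p = 0.284); in bFGF-JB6 colonies it was called lower in 5 of 21 refits (adjusted p down to 0.0283). In RT101 colonies Rbl2, which encodes p130 of the DREAM complex, rose by 1.53 (SE 0.12, adjusted p = 4.2e-07), and in bFGF-JB6 colonies it read 0.27 without passing (adjusted p = 0.0842). There Rbl2 was called higher in 4 of 21 refits, at 0.37 without bFGF-JB6 colonies replicate 3 (adjusted p = 0.0125) and 0.44 without both arrays of raised 3' signal (adjusted p = 0.00679). Rbl2 read 5.58 and 5.73 in RT101 monolayers and 7.20, 7.25 and 7.12 in RT101 colonies. It read 7.00 to 7.22 in bFGF-JB6 monolayers and 7.15 to 7.57 in bFGF-JB6 colonies, so the RT101 monolayers stood apart as the low group. Lin37, a MuvB gene, also rose in RT101 colonies (0.74, named after its value was seen), while Mybl2 (-0.59) and Rb1 (-0.98) fell. Lin37 read 6.25 and 6.40 in RT101 monolayers and 6.61 to 7.185 on all other arrays. Rb1 read 8.127 and 8.155 in RT101 monolayers and 6.60 to 7.38 on all other arrays. Of the 14 factors, 2 rose and 2 fell in RT101 colonies, near the shares over all genes (17% and 15.4%). In bFGF-JB6 colonies 15.3% of all genes fell.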

How the data were processed

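Values are the deposited log2 signals of probe sets, made by the authors with RMA according to the submitters' processing notes, without a version. RMA corrects background, brings arrays to a common distribution and compresses folds of weak signals. Other upstream settings are not given in the sources used here. Total RNA of 11 samples was hybridised, 1 per array, and array signals carry no counts, so precision depends on how many arrays there are.

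Of 22690 probe sets 64 were controls, 20380 named 1 gene symbol in the platform annotation, 691 several and 1555 none; the reference gene table held the gene number of 20351 single-gene sets but not of 29, and changed 0 symbols. The single-gene probe set with the highest mean stood for each of the 12393 genes, and nothing was filtered or rescaled. Of the 42 members 20 had more than 1 probe set. Groups came from the titles.

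A single limma model (version 3.58.1, R 4.3.3) covered all 11 arrays (group only, lmFit and eBayes, 7 residual and 6.12 prior degrees of freedom) for 5 contrasts: colonies against monolayer in each line, the difference between these, and the lines compared within monolayers and within colonies. The threshold was 0.05 after Benjamini-Hochberg adjustment over all genes. SE is the moderated standard error. On simulated data with 200 changed genes among 12393, changes of 0.5 and 1 on the log2 scale were recovered for 75% and 100% in the bFGF-JB6 contrast, 57% and 98% in RT101 and 23% and 98% for the difference. Far more genes were called in the data, such as 4013 in RT101 colonies, and the simulated noise was independent between genes. These rates therefore need not hold for the data.

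The members, further lists (other centromere and kinetochore, checkpoint, entry, spindle and cytokinesis, condensin and cohesin genes, transcription factors, DNA replication), markers and rules were chosen with earlier results of these data known. All 42 members are named. Difference, SE and adjusted p in bFGF-JB6 colonies are given for a set list of 21. They are also given for the 3 with the largest called difference each way per comparison, except Ncapg, which lacks the SE. For the difference between the lines' colony changes, those 3 are given by size only. Of each further list up to 3 called genes in bFGF-JB6 colonies and 2 in RT101 colonies by size are named, and always Foxm1, Mybl2 and Rbl2. Promoter sequences are RefSeq's, build GRCm38.p6, matched by symbol. Motif searches and plots used Python 3.11.15 and matplotlib 3.10.9.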

Additional observations from a re-analysis of the deposited data

Results flagged for a closer look

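For 34 of the 42 mitosis genes the change from monolayer to colonies differed between the lines, by the limma test of the RT101 change minus the bFGF-JB6 change (adjusted p under 0.05 over all genes). Over all genes, 15% had a positive difference that passed and 12.7% a negative one. The values below are log2 differences, and each of the 34 was above 0. For genes of mitotic entry the difference was Ccnb2 2.36, Cdca3 2.03, Plk1 1.72, Aurka 0.93, Cdk1 0.92, Cdc25c 0.71, Ccna2 0.68 and Nek2 0.47. Among genes of the passenger complex it was Aurkb 2.27, Birc5 1.40 and Incenp 0.995. For the checkpoint and the anaphase-promoting complex it was Ube2c 2.15, Cdc20 1.71, Bub1b 1.14, Bub1 0.99, Mad2l1 0.86 and Ttk 0.74. For genes of the kinetochore the difference was Cenpa 2.11, Spc25 1.77 and Cenpe 1.52. Among genes of the spindle it was Nusap1 1.83, Kif2c 1.73, Kif22 1.24, Hmmr 1.02 and Kif4 0.64. In cytokinesis it was Kif20a 2.15, Kif23 1.67, Prc1 0.84, Anln 0.65 and Racgap1 0.61. For genes of chromosome structure the difference was Ncapd2 1.77, Mki67 1.32, Cdca5 1.14 and Top2a 0.74. No cause of these differences was tested. The lines also differ in bFGF, and growth factor and line cannot be told apart. In 21 refits the difference was called each time for 32 of the 34 genes, all but Nek2 (lost in 13) and Top2a (lost in 1). Cenpe and Cdc25c were tested in 20 of those refits.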

How the results depend on the processing

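The planned refits changed the probe sets (their mean per gene, or each alone), the genes tested (those above the median level), the scaling (cyclic loess or centring on the median), the variance (robust and trended, or weighted by array), the arrays (single groups or single arrays dropped), the block (title number or letter) and the call (2-fold minimum); leaving out both arrays of raised 3' signal, and the refits of the other lists, were chosen after seeing the data. Without those 2 arrays 42 genes were called lower in bFGF-JB6 colonies and 13 higher and 11 lower in RT101 colonies. No sign of a called gene was reversed.

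With 1 array left out at a time, bFGF-JB6 colonies had 41 to 42 genes lower (median -1.17 to -1.01) and RT101 colonies 7 to 13 higher and 6 to 10 lower (median -0.0363 to 0.013, the sign turning to 0.013 without RT101 monolayer replicate 1 and to 0.0127 without RT101 colonies replicate 3). The difference between the changes had 33 to 34 higher (median 0.91 to 1.07), RT101 against bFGF-JB6 monolayers 20 to 25 higher and 1 to 3 lower (0.33 to 0.39), and colonies 42 higher (1.45 to 1.59). The mean of probe sets gave medians of -0.91 in bFGF-JB6 colonies, 0.87 for the difference and 1.38 between colonies, with 1 gene lower between monolayers. All 73 probe sets gave -0.96, 0.86 and 1.48, with 11 higher and 11 lower in RT101 colonies and 2 lower between monolayers. Of those 73, 63 were called lower in bFGF-JB6 colonies and 0 higher. Between colonies 65 of the 73 were called higher in RT101 and 0 lower. Median centring gave -0.11 in RT101 colonies, 0.91 for the difference and 0.45 between monolayers, with 1 lower there. Genes above the median level gave 0.29 between monolayers. With the 2-fold minimum 24 were lower in bFGF-JB6 colonies, 0 higher and 1 lower in RT101 colonies, 20 higher for the difference, and 5 higher and 0 lower between monolayers. The causes were not tested.

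Same-numbered arrays deviated together in some pairs only. By title number r was -0.336 to 0.32 over 15 pairs (median 0.01, 5 over 0.1, among them all 3 pairs of bFGF-JB6 and RT101 colonies), and by letter -0.276 to 0.32 (median 0.111, 8 over 0.1). As not every pair was over 0.1, the numbers were not taken as a pairing. The replicate block by title number gave 42 lower in bFGF-JB6 colonies, 11 higher and 8 lower in RT101 colonies and 1 lower between monolayers; by letter RT101 colonies had 11 and 9.

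Over the refits, genes lower in RT101 colonies ran from 4 to 12 for DNA replication (10 in the report), 5 to 11 for other centromere and kinetochore genes (8), 2 to 8 for other spindle and cytokinesis genes (5), 2 to 4 for other checkpoint genes (2), 1 to 5 for other condensin and cohesin genes (2) and 1 to 3 for transcription factors (2). Genes higher there ran from 1 to 4 for other entry genes (2), 2 to 3 for transcription factors (2), 1 to 2 for DNA replication (2) and for other spindle and cytokinesis genes (2), 2 to 3 for other centromere genes (3), 2 to 4 for other checkpoint genes (3) and 0 to 1 for other condensin and cohesin genes (1). In bFGF-JB6 colonies up to 2 transcription factors, 2 other condensin or cohesin genes, 1 other entry gene and 1 other checkpoint gene were called higher (0 in the report), and 0 to 1 other centromere genes (1). Genes near the bottom of the scale have compressed folds.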
